A study of Mus musculus with 7 samples.

Results

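The guanylate-binding proteins Gbp2 to Gbp9 were followed across mouse spleen monocytes that had been left unstimulated or treated with 1 of 4 agents. Members were the probe sets of the deposited table annotated with 1 gene symbol only, that symbol being Gbp2, Gbp3, Gbp4, Gbp5, Gbp6, Gbp7, Gbp8 or Gbp9. This rule found 7 of the 8 genes, among 22180 genes with such a probe set. The probe set that carries Gbp2 also carries the symbol of its neighbour Gbp2b, so Gbp2 had no value of its own. Of the 7 genes found, 6 reached the log2 level of 5 on at least 1 array that was set for testing, and Gbp6 did not.

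RNA from 2 mice, as the labels number them, was hybridised to 7 arrays in 5 groups. The unstimulated group and the group given HL7G at 400 ng/ml, a monoclonal antiphospholipid antibody, held 1 array from each mouse. R848 (2 µg/ml, a small-molecule agonist of the endosomal receptor TLR7), CpG B (2.5 µM, DNA oligonucleotides that activate TLR9) and poly I:C (1 µg/ml, synthetic double-stranded RNA, which TLR3 senses) were each given to cells of mouse 1, with 1 array each. All groups were selected monocytes, and all carried wild-type EPCR, a receptor for protein C on endothelial and myeloid cells. Stimulation lasted 3 h. The sources used here do not give the strain, sex or age of the mice, the way the monocytes were selected or the culture time of the unstimulated cells. The IgG condition named in the protocol was not analysed here.

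Guanylate-binding proteins are large GTPases of the dynamin superfamily. Their genes are switched on by interferons through STAT and IRF transcription factors, and in mice they lie in a cluster on chromosome 3 and another on chromosome 5. The proteins assemble on the vacuoles of intracellular pathogens and on bacteria in the cytosol. There they help to break open the vacuole and to expose bacterial lipopolysaccharide to caspase-11.

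Promoter windows are printed for the Gbp genes that the promoter table holds, to show the interferon response letters in them. RefSeq (GRCm38.p6) gave windows of 300 bases, from 250 before to 50 after an annotated start, for 5 Gbp genes, all on the plus strand of chromosome 3. The interferon-stimulated response element was searched as TTTC, any 2 bases and TTTC or, on the other strand, GAAA, any 2 bases and GAAA, and the gamma-activated site as TTCNNNGAA, which reads the same on both strands. Capitals mark the matches. The windows are chr3:142496684-142496983 for Gbp5, chr3:142530086-142530385 for Gbp7, chr3:142559794-142560093 for Gbp3, chr3:142620413-142620712 for Gbp2 and chr3:142594597-142594896 for Gbp2b.
Gbp5: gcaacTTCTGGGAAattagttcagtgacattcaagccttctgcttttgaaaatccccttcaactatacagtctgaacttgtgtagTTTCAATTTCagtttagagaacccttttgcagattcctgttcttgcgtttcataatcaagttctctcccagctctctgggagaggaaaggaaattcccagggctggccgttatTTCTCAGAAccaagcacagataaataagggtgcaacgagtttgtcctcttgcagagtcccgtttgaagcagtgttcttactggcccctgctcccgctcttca
Gbp7: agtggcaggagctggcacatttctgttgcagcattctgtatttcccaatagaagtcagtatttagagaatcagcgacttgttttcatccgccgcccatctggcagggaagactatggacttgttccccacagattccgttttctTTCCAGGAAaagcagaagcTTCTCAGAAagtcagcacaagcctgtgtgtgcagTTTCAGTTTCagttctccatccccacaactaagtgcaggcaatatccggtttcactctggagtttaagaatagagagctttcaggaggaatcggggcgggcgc
Gbp3: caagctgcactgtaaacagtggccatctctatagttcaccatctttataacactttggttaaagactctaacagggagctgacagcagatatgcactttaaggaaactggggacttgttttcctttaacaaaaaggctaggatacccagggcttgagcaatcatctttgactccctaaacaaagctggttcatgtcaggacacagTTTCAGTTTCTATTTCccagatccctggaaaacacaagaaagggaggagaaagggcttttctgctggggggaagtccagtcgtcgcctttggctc
Gbp2: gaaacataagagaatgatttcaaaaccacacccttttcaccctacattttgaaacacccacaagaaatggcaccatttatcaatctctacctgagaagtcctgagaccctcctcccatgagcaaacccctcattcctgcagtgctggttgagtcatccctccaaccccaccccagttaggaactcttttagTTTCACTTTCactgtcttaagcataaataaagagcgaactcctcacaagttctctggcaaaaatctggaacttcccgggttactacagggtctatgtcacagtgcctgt
Gbp2b: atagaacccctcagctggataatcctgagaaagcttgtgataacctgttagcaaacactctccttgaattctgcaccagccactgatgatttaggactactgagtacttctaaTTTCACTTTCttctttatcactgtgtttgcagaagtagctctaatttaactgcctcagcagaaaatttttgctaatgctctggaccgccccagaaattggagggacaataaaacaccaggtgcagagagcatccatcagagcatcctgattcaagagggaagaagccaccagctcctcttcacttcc

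The response element letters were found in at least 1 window of all 5 genes, against 3.44% of 32851 windows of the same length over all genes. They began 53 bases before the start in Gbp7, 59 in Gbp2, 137 in Gbp2b and 165 in Gbp5. Gbp3 had a pair of overlapping matches, beginning 45 and 39 bases before the start, and its second window, at chr3:142560106-142560405, had none. The gamma-activated site letters were found in Gbp5, beginning 245 and 52 bases before the start, and in Gbp7, at 106 and 87 bases, against 8.3% of all windows. These are matches of letters, and no binding was measured. Gbp4, Gbp6, Gbp8 and Gbp9 were not matched in the promoter table.

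**Figure D1:**
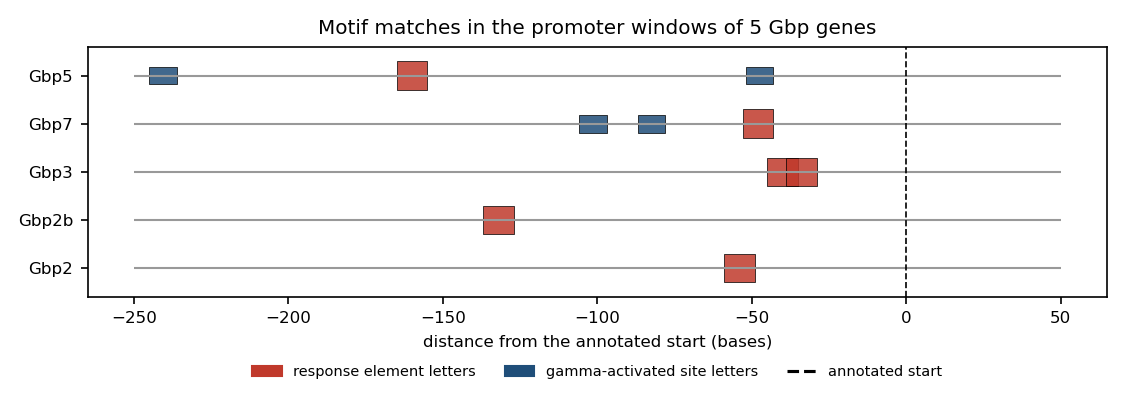
Positions of the motif letters in the promoter windows of 5 Gbp genes, with distance from the annotated start in bases on the x axis and 1 line per gene; tall red boxes are response element matches and short blue boxes gamma-activated site matches. For Gbp3 the window with matches is drawn. Each gene has at least 1 red box, and Gbp5 and Gbp7 have 2 blue boxes each.

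Values are log2 expression levels after RMA, a method that corrects background, equalises the arrays and combines probes into probe sets. A level can be compared between arrays for the same gene and not between genes. Differences were tested with limma over all 11127 genes tested, and a gene was called at a Benjamini-Hochberg adjusted p under 0.05. Errors are standard errors (SE) of that fit. Members resemble each other in sequence and the probe positions were not used here, so how much signal each probe set took from a related gene is not known.

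Gbp8 and Gbp9, both of the chromosome 5 cluster, rose with HL7G in both mice. Gbp8 read 4.31 in mouse 1 and 4.96 in mouse 2 without stimulation, and 8.09 and 7.24 with HL7G. Its other arrays read 7.12 with R848, 7.38 with CpG B and 7.90 with poly I:C. The 5 stimulated arrays of Gbp8 thus lay within 1 log2 unit of each other and clear of the unstimulated pair. In limma Gbp8 was 8.20-fold higher with HL7G than without (log2 difference 3.04 ± 0.35 SE, n = 2 against 2, adjusted p = 0.0120).

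Without stimulation Gbp9 read 5.36 in mouse 1 and 5.22 in mouse 2, and it read 8.97 and 7.73 with HL7G. It read 7.68 with R848, 6.83 with CpG B and 7.36 with poly I:C. Both HL7G arrays were above the agonist arrays, in mouse 2 by 0.045 over the highest of them. Gbp9 was 8.34-fold higher with HL7G (3.06 ± 0.39, adjusted p = 0.0120). Cyclic loess on the tested genes lowered this to 1.94 and kept the call (adjusted p = 0.00978). Gbp9 was the member above the level of 5 on all 7 arrays.

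In the chromosome 3 cluster, Gbp5, which promotes assembly of the NLRP3 inflammasome, also rose with HL7G, at the edge of the threshold. Gbp5 read 3.53 and 4.13 without stimulation, 7.32 in mouse 1 and 5.07 in mouse 2 with HL7G, 6.07 with R848, 4.93 with CpG B and 5.20 with poly I:C. The 5 stimulated arrays were above the unstimulated pair, and the mouse 1 HL7G array was well above that of mouse 2. The difference was 2.36 ± 0.66 (5.15-fold, adjusted p = 0.0497). Of 8 other settings that used all arrays, 5 kept its call. The call ended without the filter on level (adjusted p = 0.0572), with median centring (0.0503) and when probe sets were tested singly (0.0897).

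Gbp7, which takes part in assembling the phagocyte NADPH oxidase, read 4.68 and 4.92 without stimulation and 7.61 and 5.65 with HL7G. It read 6.18 with R848, 6.29 with CpG B and 6.10 with poly I:C. All 5 stimulated arrays were above the unstimulated pair. The HL7G difference was 1.83 ± 0.57 (3.56-fold) and was not called (adjusted p = 0.0656). In the fit with mouse as block it was called (adjusted p = 0.0346), as it was with a variance trend (0.0343) and after quantile normalization (0.0379). These were 3 of 8 other settings that used all arrays, and the rest did not call it.

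Gbp3 was high on a single array, that of mouse 1 with HL7G. It read 6.51 there and between 3.94 and 4.55 on the other 6 arrays, among them 4.19 with HL7G in mouse 2. Its HL7G difference was 1.17 ± 0.66 (adjusted p = 0.238). Gbp4, which is known to dampen signalling through the transcription factor Irf7, was highest on the same array and also reached the level of 5 with CpG B. It read 7.14 with HL7G in mouse 1 and 4.12 in mouse 2, against 3.57 and 3.14 without stimulation. With R848 it read 4.01, with CpG B 5.12 and with poly I:C 4.42. The HL7G difference of Gbp4 was 2.27 ± 0.85 (4.82-fold, adjusted p = 0.104). Of 8 other settings that used all arrays, 1 called it, the fit with mouse as block (adjusted p = 0.0261).

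Gbp6 stayed between 3.11 and 3.82 on all 7 arrays and was not tested. Its HL7G array was lower than the unstimulated one in mouse 1 (-0.34) and higher in mouse 2 (0.28). The probe set shared by Gbp2 and Gbp2b read 4.89 and 4.79 without stimulation, 7.63 and 5.59 with HL7G, 6.60 with R848, 5.68 with CpG B and 6.03 with poly I:C. Gbp2b alone, on its own probe set, stayed between 4.09 and 4.53. Which of the 2 genes the shared probe set read was not tested.

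**Figure D2:**
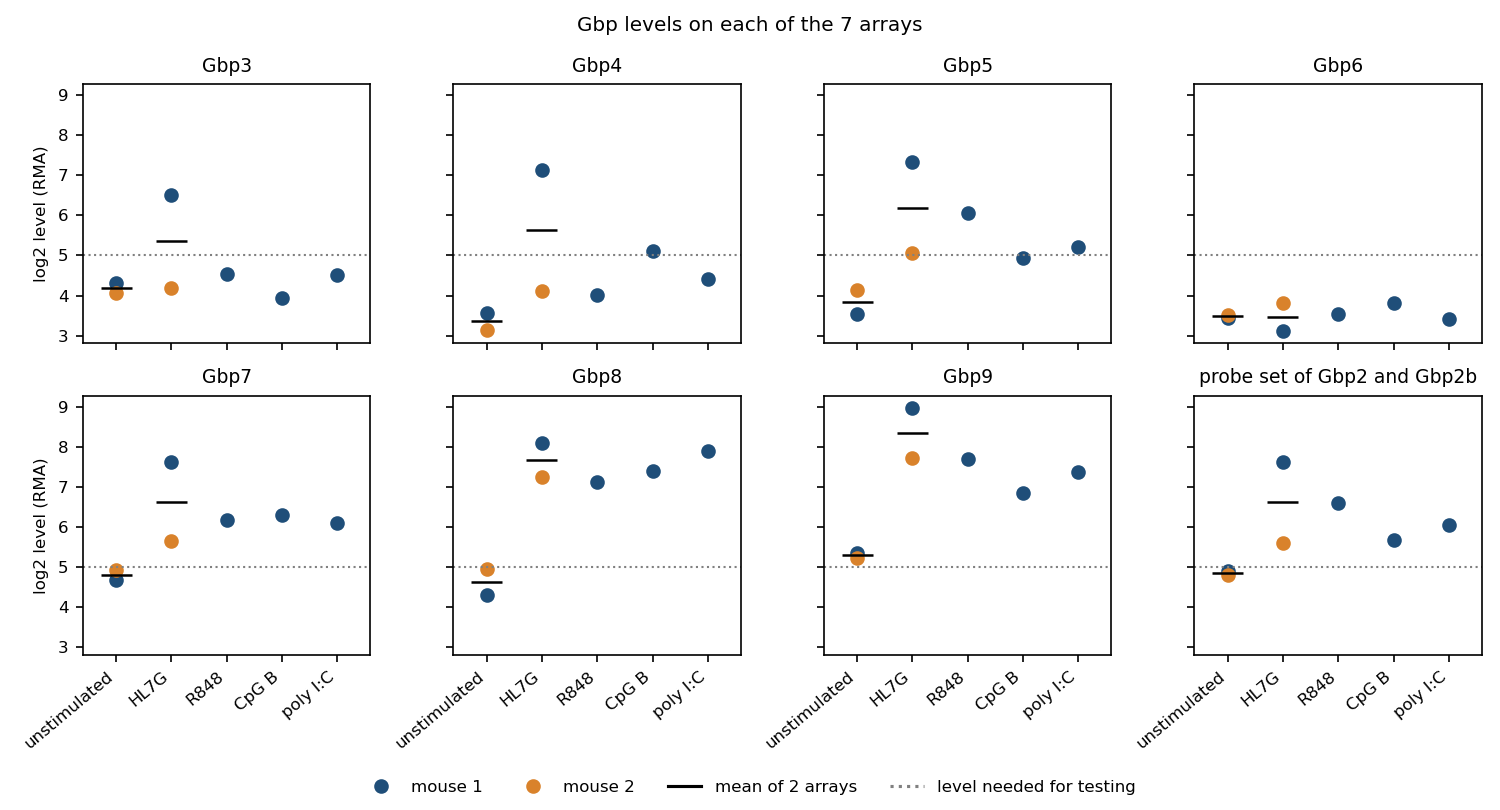
Log2 level (y axis) of the 7 Gbp members found and of the probe set shared by Gbp2 and Gbp2b in each treatment group (x axis); each point is 1 array, blue for mouse 1 and orange for mouse 2, the bar is the mean of 2 arrays and the dotted line the level of 5. Gbp8 and Gbp9 are high on all stimulated arrays, Gbp3 and Gbp4 stand out on the mouse 1 HL7G array (6.51 and 7.14), and Gbp6 reaches at most 3.82.

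Taking the members as a group, 3 of the 6 tested were called higher with HL7G (Gbp5, Gbp8 and Gbp9) and none lower, where 18.2% of all genes tested were called, 16.3% higher and 1.89% lower. Their median difference was 2.32, against 0.06 over all genes tested. The level filter bears on these figures, since every tested member except Gbp9 reached 5 only on stimulated arrays. Each of those thus had to exceed the unstimulated pair on at least 1 stimulated array. Both HL7G arrays were above both unstimulated arrays for 5 of the 6, as for 40.5% of all genes tested, and Gbp3 was the exception. The same 5 members had all 5 stimulated arrays above the unstimulated pair, as did 27.4% of genes.

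The calls depended on single arrays. Without the mouse 1 unstimulated array 2 genes were called over the whole table and none of them was a member. Gbp8 then had 2.71 and Gbp9 3.13 (adjusted p = 0.0878 for both), and Gbp5 had 2.06 (adjusted p = 0.225). Gbp5 was not called without the mouse 2 unstimulated array either (2.66, adjusted p = 0.100). Without the mouse 1 HL7G array Gbp8 kept 2.61, Gbp9 2.44 and Gbp5 1.24, while Gbp3 had 0.010, Gbp4 0.76 and Gbp7 0.85. Without the mouse 2 HL7G array, Gbp3 had 2.32, Gbp4 3.78, Gbp7 2.81 and Gbp5 3.49.

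The array from mouse 1 with HL7G was the highest of the 7 for all 6 members tested, as it was for 30.5% of all genes tested. Gbp3 reached the level of 5 on that array alone and so had to be highest there. Gbp4, Gbp5, Gbp7 and Gbp8 reached 5 on stimulated arrays only, so the level filter bears on this count too. Within mouse 1 the HL7G difference was 3.79 for Gbp5, 3.78 for Gbp8, 3.62 for Gbp9, 3.57 for Gbp4, 2.93 for Gbp7 and 2.20 for Gbp3. Within mouse 2 it was 2.50 for Gbp9, 2.29 for Gbp8, 0.97 for Gbp4, 0.94 for Gbp5, 0.74 for Gbp7 and 0.13 for Gbp3. Gbp8 and Gbp9 were at least 2-fold higher with HL7G in both mice, as were 8.6% of all genes tested. The members' median was 3.59 in mouse 1 and 0.95 in mouse 2, against 0.02 and 0.12 over all genes tested. Differences were wider in mouse 1 over the whole table too, with an SD over genes of 1.05 against 0.60, and with 1 pair of arrays per mouse the difference between mice was not tested.

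**Figure D3:**
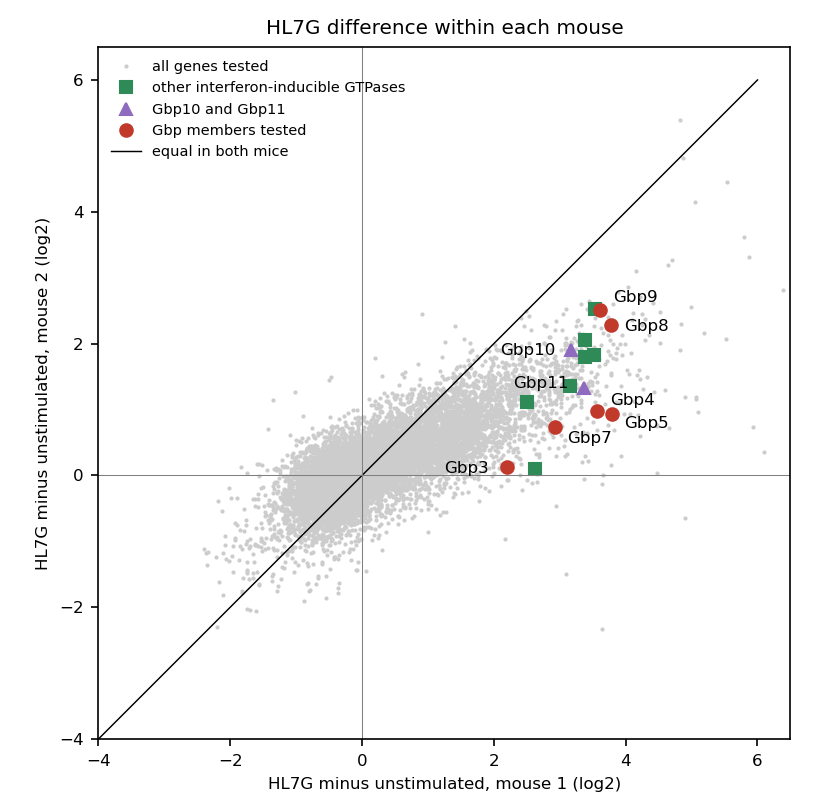
HL7G minus unstimulated log2 difference in mouse 1 (x axis) and mouse 2 (y axis); each grey point is 1 of the 11127 genes tested, red circles are the 6 tested Gbp members, purple triangles Gbp10 and Gbp11, green squares 7 other interferon-inducible GTPases, and the diagonal marks equal differences. The red points lie under the diagonal, Gbp8 and Gbp9 nearest to it and Gbp3 close to 0 in mouse 2.

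The Toll-like receptor agonists were read on 1 array each. Gbp5, Gbp7, Gbp8 and Gbp9 were above both unstimulated arrays with all 3 agonists, as was Gbp4, while Gbp3 was below both with CpG B. With R848 the difference from unstimulated was 2.49 ± 0.43 for Gbp8, 2.39 ± 0.48 for Gbp9, 2.24 ± 0.81 for Gbp5 and 1.38 ± 0.70 for Gbp7. Gbp3 and Gbp4 had 0.36 ± 0.81 and 0.66 ± 1.03, and both became negative in the fit with mouse as block (-0.28 and -0.21). Within mouse 1 alone they were positive, at 0.24 and 0.44. The mouse term of the block rests on the unstimulated and HL7G arrays, since the agonists were given to mouse 1 only. No gene was called with R848, so the background was 0% in limma, although 2551 genes had an unadjusted p under 0.05 and the mouse block gave 5 calls over the table. Gbp8 and Gbp9 came nearest among the members, with adjusted p of 0.0855 and 0.0864.

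With CpG B the values were 2.75 ± 0.43 for Gbp8, 1.76 ± 1.03 for Gbp4, 1.54 ± 0.48 for Gbp9, 1.49 ± 0.70 for Gbp7, 1.10 ± 0.81 for Gbp5 and -0.24 ± 0.81 for Gbp3. CpG B was the agonist with the highest Gbp4 and Gbp7 levels. With poly I:C the values were 3.27 ± 0.43 for Gbp8, 2.07 ± 0.48 for Gbp9, 1.37 ± 0.81 for Gbp5, 1.30 ± 0.70 for Gbp7, 1.06 ± 1.03 for Gbp4 and 0.34 ± 0.81 for Gbp3. The mouse block turned the poly I:C value of Gbp3 to -0.30, while within mouse 1 alone it was 0.22. Again limma called no gene (0%) in either comparison, with 1370 and 1054 genes at an unadjusted p under 0.05. The mouse block gave 2 calls with poly I:C and 0 with CpG B. Quantile normalization led to a call of Gbp8 with each agonist (adjusted p = 0.0220 with R848, 0.0347 with CpG B and 0.0167 with poly I:C) and of Gbp9 with R848 (0.0238). The lowest adjusted p among the members was 0.208 with CpG B and 0.378 with poly I:C, both for Gbp8. Leaving out either HL7G array changes the estimate of spread and not these differences. Calls with the agonists then appeared over the whole table, members among them, so they are not a result about the members alone. Gbp8 with poly I:C had 3.60 without the mouse 2 unstimulated array. A single array was assumed to vary like the groups with 2 arrays, so these p-values carry no replicate check.

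Measured within mouse 1 alone, the agonist arrays were at least 2-fold above the unstimulated array for 4 of 6 members with R848 (Gbp5, Gbp7, Gbp8 and Gbp9). That share was 14.5% over all genes tested. With CpG B it was 5 of 6, Gbp4 being added, against 10.2% of genes, and with poly I:C 4 of 6, the same genes as with R848, against 8.35%. Gbp3 did not reach 2-fold with any agonist. Gbp4, Gbp5, Gbp7 and Gbp8 were under the level of 5 on both unstimulated arrays and passed the filter through stimulated arrays. The filter thus bears on these counts, and their excess over the shares of all genes was not tested.

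**Figure D4:**
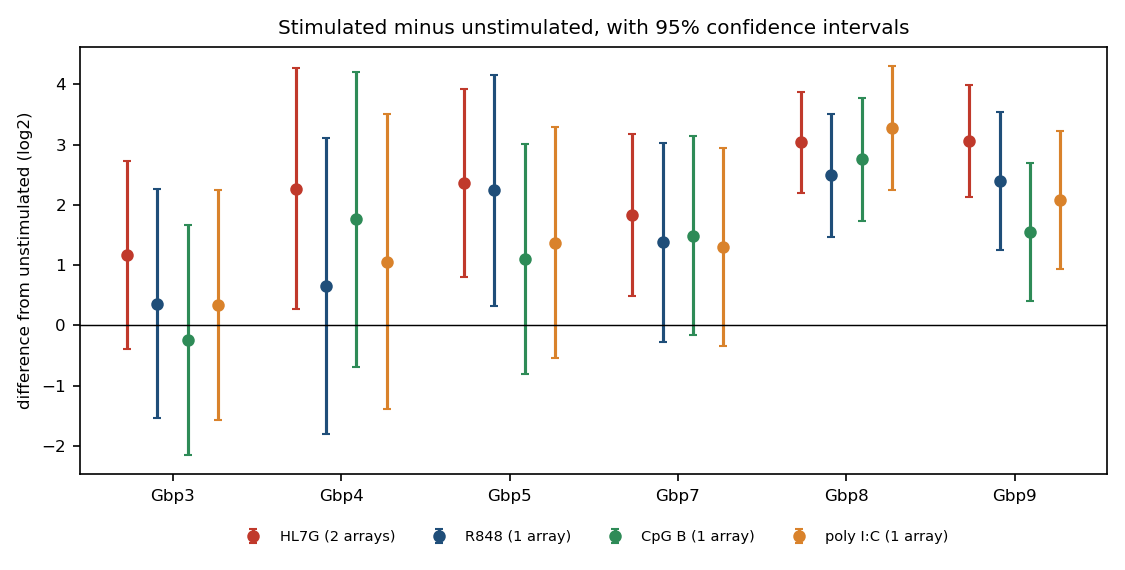
Stimulated minus unstimulated log2 difference (y axis) for the 6 tested Gbp members (x axis) with HL7G (red), R848 (blue), CpG B (green) and poly I:C (orange); points are limma estimates and bars 95% confidence intervals, which for the single-array groups rest on the spread of the other groups. For Gbp8 and Gbp9 all 4 intervals lie above 0, and for Gbp3 all 4 include 0.

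HL7G was set directly against the mean of the 3 agonists. The difference was 1.11 ± 0.77 for Gbp4, 1.06 ± 0.36 for Gbp9, 1.01 ± 0.60 for Gbp3, 0.79 ± 0.60 for Gbp5, 0.44 ± 0.52 for Gbp7 and 0.20 ± 0.32 for Gbp8. No member and no other gene was called (0% of genes, with 1203 at an unadjusted p under 0.05), and the lowest adjusted p among members was 0.402, for Gbp9. For Gbp8 the 95% confidence interval ran from -0.57 to 0.96. Without the mouse 1 HL7G array the difference was -0.53 for Gbp7, -0.40 for Gbp4, -0.33 for Gbp5, -0.23 for Gbp8, -0.14 for Gbp3 and 0.43 for Gbp9. The agonist arrays are all of mouse 1, so that fit compares mouse 2 with mouse 1. Without the mouse 2 HL7G array, and so within mouse 1, the differences were positive. They were 1.42 for Gbp7, 2.62 for Gbp4, 1.92 for Gbp5, 0.62 for Gbp8, 2.17 for Gbp3 and 1.68 for Gbp9. The Gbp8 difference was also negative after quantile normalization (-0.15) and after cyclic loess (-0.024).

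Poly I:C was compared with the mean of R848 and CpG B. Gbp8 was higher with poly I:C by 0.65 ± 0.43, with a 95% confidence interval from -0.37 to 1.68. Gbp8 was the member whose poly I:C array was above both others, a pattern seen for 26.2% of genes. The remaining 5 members had between -0.30 and 0.28. Limma called no gene (0%, with 187 at an unadjusted p under 0.05).

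The members were compared in their pattern over the arrays, with no measure of noise to set beside the differences. After subtracting each gene's mean over the 7 arrays, the closest pair was Gbp5 and Gbp7, with a root mean square difference of 0.41 log2 units, and the farthest was Gbp3 and Gbp8 at 1.24. Gbp7 lay nearest to the mean pattern of the 6 members (0.21) and Gbp8 farthest (0.67). The 5 genes outside the members nearest to that mean over the 7 arrays were Herc6 (0.16), Smchd1 (0.17), Irf7 (0.17), Parp9 (0.18) and Gbp11 (0.19). Herc6, for example, read 4.28 and 4.41 without stimulation, 7.85 and 5.95 with HL7G, 6.37 with R848, 6.11 with CpG B and 6.21 with poly I:C. The arrays share the low unstimulated pair and the high mouse 1 HL7G array, which set much of any such likeness.

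**Figure D5:**
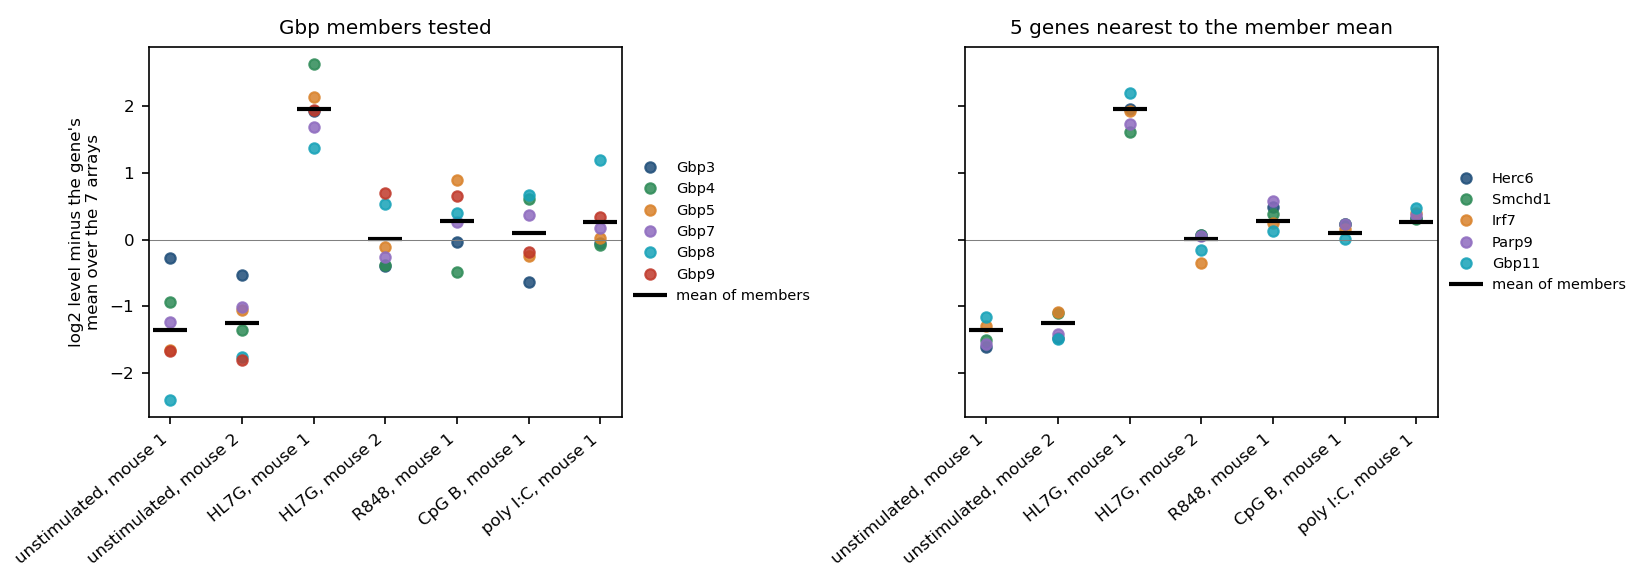
Log2 level minus the gene's mean over the 7 arrays (y axis) on each array (x axis), for the 6 tested Gbp members on the left and the 5 nearest genes on the right; black bars are the mean of the members. The members spread on the agonist arrays, Gbp8 being highest with poly I:C and Gbp3 lowest with CpG B. The genes on the right were chosen for lying near the bars, so their closeness cannot be set against the spread of the members.

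Neighbouring Gbp genes outside the rule were read beside the members. Gbp10, in the chromosome 5 cluster, read 5.82 and 5.98 without stimulation, 8.99 and 7.87 with HL7G and 7.92 to 8.41 with the agonists. It rose with HL7G by 2.53 ± 0.37 (adjusted p = 0.0120). Gbp11, annotated as a transcribed pseudogene, read 3.75 and 3.43 without stimulation, 7.12 and 4.76 with HL7G and 4.92 to 5.39 with the agonists (2.34 ± 0.67, adjusted p = 0.0537). The atlastins Atl1 and Atl3, membrane-fusing GTPases related to the Gbp proteins, had -0.28 ± 0.21 and 0.57 ± 0.26 and were not called (adjusted p = 0.359 and 0.160).

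Other interferon-inducible GTPases were read as well. The calls given here and for the lists that follow rest on the same arrays as those of the members, and without the mouse 1 unstimulated array only 2 genes of the whole table were called. Of 7 tested, 6 rose with HL7G and none fell, where 16.3% of all genes tested were called higher. All 7 were under the level of 5 on both unstimulated arrays. They passed the filter through stimulated arrays and so had to exceed the unstimulated pair on at least 1 of these. Igtp, an immunity-related GTPase that guards against the loading of effector GTPases onto the cell's own membranes, read 4.10 and 4.08 without stimulation and 7.63 and 6.61 with HL7G (3.03 ± 0.34, adjusted p = 0.0120). Mx2 and Mx1, antiviral dynamin-like GTPases, rose by 2.72 ± 0.49 and 2.68 ± 0.64 (adjusted p = 0.0166 and 0.0314). Gm12250, which encodes Irgb10, a GTPase recruited with Gbp proteins to bacteria, rose by 2.59 ± 0.47 (adjusted p = 0.0168). Iigp1 was the exception, at 7.20 with HL7G in mouse 1 and 4.74 in mouse 2 against 4.57 and 4.65 without stimulation (1.36 ± 0.69, adjusted p = 0.201). With R848, CpG B and poly I:C limma called none of them, nor any gene of the pathway lists that follow.

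Most signalling genes of the interferon pathway were higher with HL7G, and no interferon gene was called higher. Of 12 signalling genes tested 10 rose and none fell, with a median of 1.88, against 16.3% of all genes called higher. Of the 10, 3 (Ifngr1, Stat2 and Irf9) reached the level of 5 on stimulated arrays only. Stat2, a subunit of the factor that binds the response element, rose by 2.75 ± 0.43 (adjusted p = 0.0133), and Irf1, a transcription factor of the interferon-gamma response, by 1.86 ± 0.24 (0.0120). The receptor-bound kinases Jak1 and Jak2 rose by 2.23 ± 0.33 and 2.11 ± 0.30, and Irf8, a myeloid transcription factor, by 2.17 ± 0.52 (adjusted p = 0.0124, 0.0120 and 0.0318). Ifng, the interferon that most strongly induces Gbp genes, stayed between 4.37 and 4.89 and Ifnb1 between 2.93 and 3.58, both under the level for testing. Of 18 interferon genes with a single-symbol probe set, 7 reached the level for testing. Of these 7 none was called higher and 2 fell, where 1.89% of all genes tested were called lower. Those 2 were Ifna4 (-1.17 ± 0.29, adjusted p = 0.0350) and Ifna6 (-0.94 ± 0.23, adjusted p = 0.0332), and Ifna6 reached 5 on unstimulated arrays only. Ifna14 and Ifnl3 had -0.58 and -0.55.

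Downstream of the Gbp proteins, 3 of 5 tested genes of the caspase-11 and inflammasome list rose and none fell, with a median of 1.07, against 16.3% of all genes called higher. Casp4, which encodes caspase-11, the lipopolysaccharide sensor, read 3.39 and 3.81 without stimulation and 5.71 and 4.59 with HL7G (1.55 ± 0.38, adjusted p = 0.0348). It reached the level of 5 on the mouse 1 HL7G array alone and so had to be highest there. Aim2, a cytosolic DNA sensor, also reached it on stimulated arrays only and had 0.71 ± 0.24 (adjusted p = 0.0803). Gsdmd, the pore-forming gasdermin that caspase-11 cuts, rose by 1.07 ± 0.27 (adjusted p = 0.0380) and Il1b, a cytokine released after inflammasome activation, by 2.16 ± 0.48 (0.0265).

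Atg8 proteins and their conjugation enzymes direct Gbp proteins to pathogen vacuoles. Here 1 of 9 tested genes rose and none fell, where 16.3% of all genes tested were called higher. The median was 0.61, and 5 of the 9 reached 5 on stimulated arrays only. The gene called was Gabarap (1.44 ± 0.22, adjusted p = 0.0128), while Atg3, Map1lc3b and Atg5 had 0.91, 0.78 and 0.65 (adjusted p = 0.0740, 0.0827 and 0.137). Prenylation anchors some Gbp proteins in membranes, and none of its 4 tested genes was called (median 0.46). Fnta, the alpha subunit of the prenyltransferases, had 0.70 ± 0.29 (adjusted p = 0.128), Pggt1b, Rce1 and Icmt had 0.55, 0.36 and -0.24.

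Several features of the arrays moved with the HL7G comparison, and their part in the Gbp differences was not tested. Of 5 abundant transcripts, 4 read lower in the unstimulated pair than on the other 5 arrays and Gapdh read higher. Actb was at 5.02 and 6.81 against 7.77 to 9.34, B2m at 5.74 and 7.90 against 9.23 to 10.3, Eef1a1 at 6.61 and 9.46 against 10.2 to 10.8 and Ptprc at 4.06 and 5.44 against 6.86 to 8.30. Gapdh was at 9.13 and 8.75 against 7.73 to 8.32. Over genes tested, which are not independent replicates, the unstimulated and HL7G arrays had r = 0.305 in mouse 1 and 0.744 in mouse 2. Over all genes tested 18.2% were called with HL7G, 16.3% higher, and the marker counts here are to be read beside these shares. Monocyte markers were dim, with 4 of 9 under 5 on every array, Ly6c2 and Ccr2 among them, and Lyz2 was the 1 marker of 5 tested that was called. Of the other lists, Hmox1 was called among 4 tested red pulp macrophage markers. No tested marker of NK cells (2), neutrophils (2), conventional dendritic cells (3), plasmacytoid dendritic cells (4) or erythroid cells (2) was called. B cell and T cell markers were higher with HL7G, 7 of 8 and 3 of 6 tested being called, against 16.3% of all genes called higher. Of those called, 3 and 1 reached 5 on stimulated arrays only. The mean log2 level of the 9 B cell markers was 4.80 and 5.01 without stimulation, 6.20 and 6.13 with HL7G and 5.46 to 5.78 with the agonists, and that of the 7 T cell markers was 4.97 and 5.15, then 5.98 and 6.04, then 5.33 to 5.42. In RNA of a whole sample, more cells of a type and more RNA per cell cannot be told apart.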

How the data were processed

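Per the labels, total RNA went onto 7 arrays of the type Affymetrix Mouse Gene 2.0 ST. The deposited table holds log2 levels for 41345 probe sets. The submitters' processing notes name RMA, Transcriptome Analysis Console and Affymetrix Expression Console without versions. The array annotation build was not given in the sources used here. Probe sets were named through GEO's platform annotation: 23521 had 1 symbol, 1814 several and 16010 none, and entrez identifiers of 23328 were found in RefSeq (GRCm38.p6), changing 0 symbols. Genes that reached a log2 level of 5 on 1 array or more were tested, the brightest probe set standing for a gene with several.

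All 7 arrays entered 1 limma 3.58.1 fit (R 4.3.3) with 5 groups, 2-sided, with Benjamini-Hochberg adjustment over 11127 genes. The spread came from 2 residual degrees of freedom and 4.94 prior ones, and the number of arrays limits precision. An exact permutation test of 2 against 2 arrays cannot go below p = 0.333. The fit was tested on simulated data. Named genes were the members, the 4 largest HL7G differences in each pathway list, fixed regulators and the 5 genes nearest in pattern. The members and lists were chosen with earlier results of these data known. The mouse numbers pair the arrays, since the labels give them as animals; the mouse 2 minus mouse 1 differences of the unstimulated and HL7G groups had r = -0.146. Alternatives were a mouse block, a variance trend, other filters, rescalings and leaving out arrays. Genes whose probe sets carry several symbols were not analysed here, apart from Gbp2.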

Additional observations from a re-analysis of the deposited data

Results flagged for a closer look

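Gbp6 moved in opposite directions with HL7G in the 2 mice, at -0.34 in mouse 1 and 0.28 in mouse 2. It stayed under the level of 5 on all 7 arrays, and the difference between the mice was not tested.

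The probe set annotated with both Gbp2 and Gbp2b lay outside the main measurement and was higher with HL7G than in the unstimulated samples, by 1.77 ± 0.66 SE on the log2 scale. When each of 19415 probe sets was tested on its own, a setting chosen after seeing the data, its adjusted p in limma was 0.127, and 14.2% of probe sets were called. Both HL7G arrays were above both unstimulated arrays, as they were for 40.5% of the 11127 genes tested.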

How the results depend on the processing

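All 6 tested members kept a positive HL7G difference under every setting in which they were tested. Gbp8 and Gbp9 also kept their call under the 9 alternatives that used all arrays, at 2.11 to 3.04 and 1.94 to 3.06. Over the leave-one-out fits they had 2.61 to 3.46 and 2.44 to 3.68 and were called in 3 of 4 fits each. The HL7G count of 2024 genes was 457 when the mean level had to reach 6, where fewer genes were tested, and 2 to 3298 when 1 array was left out. Blocking on mouse gave 1847. The mouse block gave 5 genes with R848 and 2 with poly I:C, where limma otherwise called 0, and a variance trend gave 95 with R848, 2 with CpG B and 2 with poly I:C. Quantile normalization gave 576, 120 and 11, with Gbp8 called under all 3 agonists (adjusted p = 0.0220, 0.0347 and 0.0167) and Gbp9 under R848 (0.0238). Cyclic loess gave 51 with R848 and 2 with CpG B. Leaving out 1 array gave up to 1542 genes with R848, 528 with CpG B and 198 with poly I:C, from 0. Those fits called Gbp5 and Gbp7 (R848), Gbp4 and Gbp7 (CpG B), Gbp8 (all 3) and Gbp9 (all 3), each in 2 of 4 fits except Gbp8 with poly I:C in 3. The cause of these shifts was not tested. Directions turned for Gbp3 with R848 (-0.28) and poly I:C (-0.30) and for Gbp4 with R848 (-0.21) under the mouse block. Within mouse 1 alone these differences were 0.24, 0.22 and 0.44. Against the mean of the agonists, Gbp8 turned under quantile normalization (-0.15) and cyclic loess (-0.024). Without the mouse 1 HL7G array Gbp3 (-0.14), Gbp4 (-0.40), Gbp5 (-0.33), Gbp7 (-0.53) and Gbp8 (-0.23) turned as well, in a comparison of mouse 2 with agonist arrays of mouse 1. Without the mouse 2 HL7G array, and so within mouse 1, they had 2.17, 2.62, 1.92, 1.42 and 0.62. Exchanging the HL7G mouse numbers in the block, added after the data were seen because of the correlation of -0.146, gave 2322 genes. The single arrays of the agonists and the 2 residual degrees of freedom limit what can be called.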
